A study of Caenorhabditis elegans with 2 samples.

Results

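The vacuolar ATPase subunit genes of *Caenorhabditis elegans* were examined for peaks of LIN-1, an ETS-domain transcription factor that acts downstream of Ras and ERK. The 10 genes vha-1, vha-2, vha-4, vha-5, vha-8, vha-10, vha-11, vha-12, vha-13 and vha-15 were taken by name, out of 19973 nuclear protein-coding genes. The remaining 11 vacuolar ATPase genes were read beside them. The 10 genes were chosen by promoter peaks of these data, in that the list was drawn up with those peaks known, so their counts and signals are descriptions and none was tested. Chromatin immunoprecipitation and sequencing (ChIP-seq) was done on whole animals of strain RW12212, allele st12212, in which lin-1::TY1::EGFP::3xFLAG was made by a CRISPR insertion at the lin-1 gene on chromosome IV. Larvae starved at the L1 stage after bleaching were grown to L4 and collected at 48 hours, as 1 group of 2 biological replicates. The description names an antibody to GFP and the antibody field names lin-1, and which was used is not settled here. Whole animals mix all tissues, so a peak cannot be placed in a cell type, and a peak says nothing about how much RNA a gene makes.

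The vacuolar ATPase is a rotary proton pump that acidifies lysosomes, endosomes and secretory vesicles. Its cytosolic V1 sector (subunits A to H) splits ATP, and the rotation it drives turns a ring of c-type proteolipids in the membrane sector V0, which carries protons past subunit a. In worms the pump is abundant in the excretory canal, intestine and epidermis. Subunit a has separate genes with known places of action, such as vha-5 in the excretory canal and epidermis, vha-6 at the intestinal lumen and unc-32 in neurons.

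Of the 10 genes, 5 had a peak summit in the promoter window (1000 bp upstream to 200 bp downstream of the gene start) in the conservative list. That list holds peaks that passed the authors' threshold for reproducibility between the replicates. The 5 genes were vha-1 and vha-2 of V0 and vha-8, vha-12 and vha-13 of V1. The sequences under the peaks are shown for 4 of them, because they are the DNA on which the finding rests. The vha-13 peak lay wholly inside the 3′ UTR of the upstream gene cept-2 and is not shown. Each is the whole peak on the plus strand of ce11, which is also the strand of each of these genes, read from the RefSeq WBcel235 sequence. Capitals mark GGAA or its reverse complement TTCC, the core that ETS-domain proteins recognise. The summit is base 149 of each.
vha-1 peak, chrIII:9780704-9780999: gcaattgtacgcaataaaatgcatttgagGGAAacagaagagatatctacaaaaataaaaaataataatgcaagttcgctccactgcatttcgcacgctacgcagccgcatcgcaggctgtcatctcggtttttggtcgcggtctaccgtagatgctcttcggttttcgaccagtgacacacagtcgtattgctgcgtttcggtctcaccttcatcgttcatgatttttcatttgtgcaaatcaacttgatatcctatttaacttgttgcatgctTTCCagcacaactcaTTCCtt
vha-2 peak, chrIII:9782104-9782399: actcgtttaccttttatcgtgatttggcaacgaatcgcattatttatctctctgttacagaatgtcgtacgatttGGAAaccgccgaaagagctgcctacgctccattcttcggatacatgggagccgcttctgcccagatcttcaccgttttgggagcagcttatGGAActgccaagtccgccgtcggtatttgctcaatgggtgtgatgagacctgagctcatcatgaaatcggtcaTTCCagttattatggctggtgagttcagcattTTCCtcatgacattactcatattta
vha-8 peak, chrIV:6790489-6790784: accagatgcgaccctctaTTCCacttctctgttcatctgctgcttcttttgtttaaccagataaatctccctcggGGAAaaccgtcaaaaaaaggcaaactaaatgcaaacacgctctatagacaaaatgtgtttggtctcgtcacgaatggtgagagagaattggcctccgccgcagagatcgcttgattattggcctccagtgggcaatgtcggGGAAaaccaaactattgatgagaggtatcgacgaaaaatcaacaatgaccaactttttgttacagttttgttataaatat
vha-12 peak, chrX:4190599-4190894: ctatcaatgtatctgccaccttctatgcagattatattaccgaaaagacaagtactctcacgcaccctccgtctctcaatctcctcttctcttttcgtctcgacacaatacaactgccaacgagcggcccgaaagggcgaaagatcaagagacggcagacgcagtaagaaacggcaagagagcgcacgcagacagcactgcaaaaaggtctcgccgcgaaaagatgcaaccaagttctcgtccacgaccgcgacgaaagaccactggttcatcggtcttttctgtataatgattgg

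The conservative list held 2267 peaks, of which 2243 were nuclear, with a median signal of 73.8 (quartiles 60.6 and 96.1). Peak signal is a value that the authors supply on an unstated scale. It was ranked within a list only, and values from different lists are not on a known common scale. Irreproducible discovery rate (IDR) is the authors' measure of how reproducible a peak is between 2 lists, with low values for reproducible peaks. It is not likeness alone, as the vha-11 promoter peak had 19.4 and 18.6 in the replicates and an IDR of 0.113. Every thresholded peak had a global IDR of 0.01 or less. Not every ranked peak below 0.01 is in the conservative list: those upstream of vha-7 and vha-19, at 1e-05, are absent. The replicates' own lists held 1079 and 1348 thresholded peaks out of 37781 and 33854 ranked ones. Read depths are unknown, and a conservative peak has 1 signal, so no SD is given. Of the nuclear conservative peaks, 94.1% were exactly 296 bp long, as all 5 vacuolar ATPase peaks were, with the summit in the middle, so that a summit here is the centre of a peak of fixed width.

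The 5 of 10 genes with a promoter summit stood beside 1049 of all 19973 genes, or 5.25%. Nothing is read from that contrast, since the genes were listed with their peaks known. The series list, the other list that both replicates enter, held the same 5 peaks with the same signals. Signals of the 5 peaks lay close together, between 82.15 and 104.5, above the median of 75.5 for the 909 nuclear promoter summits (quartiles 62.2 and 97.8). They were middling to high members of the list and not among its top peaks. The highest, vha-1, ranked 441 of 2243 nuclear peaks and the lowest, vha-2, ranked 876. All 5 had a global IDR under 0.001, between 6.01e-05 at vha-1 and 0.000343 at vha-8. That was common in the list: of the 1049 genes with a promoter summit, 590 (2.95% of all genes) had one at an IDR of 0.001 or less. All 5 also had the top score of 1000, which is scaled from the IDR and so adds nothing to it. None repeated the replicate signals of a stronger neighbour. None lay within 200 bp of a non-coding gene. No stretch of 36 bases from any of the 5 peaks occurred elsewhere in the genome. The last 2 points are checks on the 5 peaks, and shares over all promoter summits are not given here. They are thus not read as traits of these genes.

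**Figure D1:**
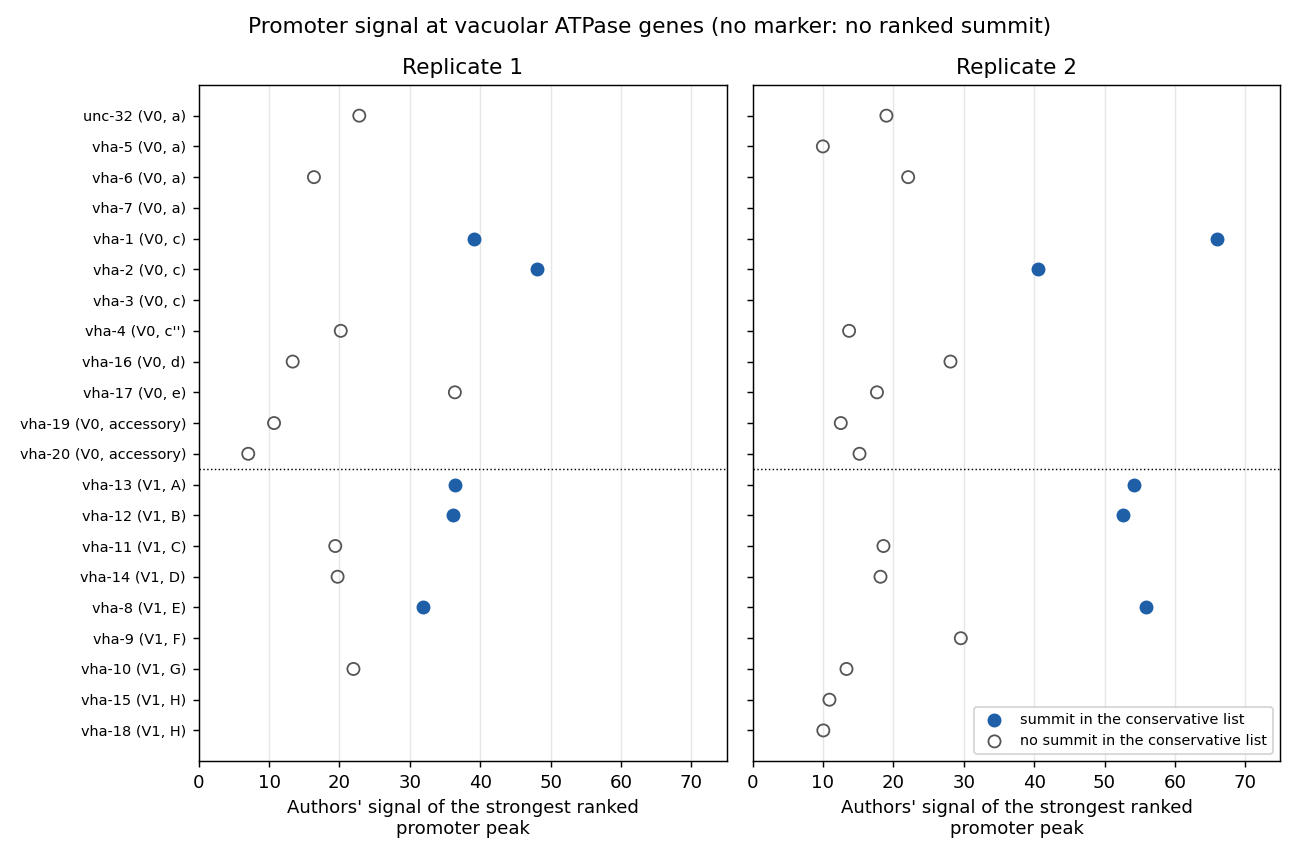
Signal of the strongest ranked peak with its summit in the promoter window, for each of the 21 vacuolar ATPase genes (rows, V0 above the dotted line and V1 below it, subunit in brackets) in replicate 1 (left) and replicate 2 (right). Filled markers are genes with a conservative summit and open markers are genes without one. Filled markers lie between 31.8 and 48.0 in replicate 1 and between 40.6 and 65.9 in replicate 2, and vha-17 in replicate 1, at 36.4, is the only open marker among them.

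In V0 the promoter summits were at the c-ring genes vha-1 and vha-2, each of which encodes a proteolipid of the proton-carrying ring. The vha-1 peak reached 39.1 in replicate 1, 65.9 in replicate 2 and 104.5 in the conservative list. Its summit was intergenic, 402 bp upstream of vha-1 (WBGene00006910, chromosome III, 9781254 to 9781763). The vha-2 peak reached 48.0 in replicate 1, 40.6 in replicate 2 and 82.15 in the conservative list. The order of the 2 genes was thus opposite in the replicates, with vha-2 higher in replicate 1 and vha-1 higher in replicate 2. The vha-2 summit lay inside the gene (WBGene00006911, chromosome III, 9782164 to 9783224), 88 bp downstream of the start in a coding exon. That is an uncommon place for a promoter summit in this list, where 84.9% were intergenic and 28 of 909 (3.08%) were in coding exons. The 88 bp are counted from the annotated start, and the true start of transcription can lie upstream of it. Whether vha-2, which follows vha-1, has a promoter of its own in this window was not tested. The start of vha-2 is 910 bp downstream of that of vha-1 on the same strand, and the summits belong to separate peaks. Both were in both replicates' own thresholded lists, and their own IDR was 0.00588 and 0.000179 at vha-1 and 0.00113 and 0.00921 at vha-2 in replicates 1 and 2.

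In V1 the promoter summits were at the genes of the ATP-splitting hexamer and of a stalk that holds it. Subunit A, vha-13, carries the catalytic site. The signal of its peak was 36.4 in replicate 1, 54.2 in replicate 2 and 92.3 in the conservative list. The summit lay 575 bp upstream of vha-13 (WBGene00013025, chromosome V, 14351709 to 14354422), the farthest of the 5. The 3′ UTR of cept-2 that holds it ends 226 bp before vha-13 starts on the same strand. Subunit B, vha-12, alternates with A around the hexamer. The signal there was 36.2 in replicate 1, 52.7 in replicate 2 and 89.05 in the conservative list, with an intergenic summit 347 bp upstream of the gene (WBGene00006921, chromosome X, 4191094 to 4193144). Subunit E, vha-8, is part of the peripheral stalks. Peak signal was 31.8 in replicate 1, 55.8 in replicate 2 and 89.1 in the conservative list, with an intergenic summit 437 bp upstream of the gene (WBGene00006917, chromosome IV, 6791074 to 6792455). The signals of vha-13, vha-12 and vha-8 spanned 3.28 on the authors' scale in the conservative list, so these peaks had nearly the same height.

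The V1 peaks passed the threshold in replicate 2 and in the comparison of the replicates, and not in replicate 1's own list. Their own IDR in replicate 1 was 0.0528 at vha-13, 0.0156 at vha-12 and 0.49 at vha-8, against 0.000747, 0.00123 and 0.0011 in replicate 2. A replicate's own ranking compares 2 lists as well, and in that of replicate 1 the vha-8 peak had signals of 22.0 and 7.60, a wider gap than at vha-13 (11.7 and 20.5) or vha-12 (14.1 and 22.4). By rank in replicate 1, the V1 peaks lay above 96.8%, 96.8% and 95.6% of its 37756 ranked nuclear peaks (vha-13, vha-12 and vha-8). They were above 98.3%, 98.1% and 98.5% of the 33832 in replicate 2. Selection for reproducibility between the replicates favours peaks that rank high in both. These ranks are thus no check of the V1 peaks in replicate 1. Summits in the replicates lay within 40 bp of the conservative one at all 5 genes. The signal value was higher in replicate 2 at 4 of the 5 peaks, with ratios of 1.46 to 1.76, and lower at vha-2 (0.845). With the scale unstated and read depth unknown, these ratios are not fold differences in binding. Of the 2192 nuclear conservative peaks with a ranked peak in both replicates, 65.4% were higher in replicate 2, with a median ratio of 1.14 (quartiles 0.919 and 1.41).

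The count of genes therefore depended on the replicate. Replicate 2's own list gave the same 5 of 10 genes (3.43% of all genes had a promoter summit there). Replicate 1's own list gave only vha-1 and vha-2 (2.65% of all genes), and so did conservative peaks found in both own lists (1.79% of all genes). Of nuclear conservative peaks, 30.2% were in both own lists and 21.4% in that of replicate 2 only, where the V1 peaks fall.

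The other 5 genes had weaker ranked peaks in their promoter windows, none of which passed. They encode the C, G and H subunits of V1 and a proteolipid and an a subunit of V0. Gene vha-11 (C, which joins the sectors) came nearest to the V1 peaks, with a strongest ranked signal of 34.9 and an IDR of 0.113. Replicate 1 had 19.4 there and replicate 2 had 18.6. For these genes a replicate's value is its strongest ranked peak in the window, which need not be the same peak in both. Gene vha-10 (G, a partner of E in the stalks) had 33.5 in the ranked comparison with an IDR of 0.422, and 22.0 in replicate 1 and 13.35 in replicate 2. Gene vha-15 (H, a regulatory subunit) had 26.9 with an IDR of 0.609, no ranked promoter summit in replicate 1 and 10.9 in replicate 2. Gene vha-4 (the c″ proteolipid) had 25.5 with an IDR of 0.675, and 20.2 in replicate 1 and 13.7 in replicate 2. Gene vha-5 (a) had 18.6 with an IDR of 0.0409, no ranked promoter summit in replicate 1 and 9.99 in replicate 2. The vha-5 peak repeated the replicate signals of a stronger one just outside the window, 1178 bp upstream, with a signal of 38.4. In the comparison the weakest of the 10 genes that passed had a signal of 82.15 and the strongest that did not had 34.9. These values were 31.8 (vha-8) and 22.0 (vha-10) in replicate 1, and 40.6 (vha-2) and 18.6 (vha-11) in replicate 2. Nothing is read from the difference, since the genes were listed with their peaks known.

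**Figure D2:**
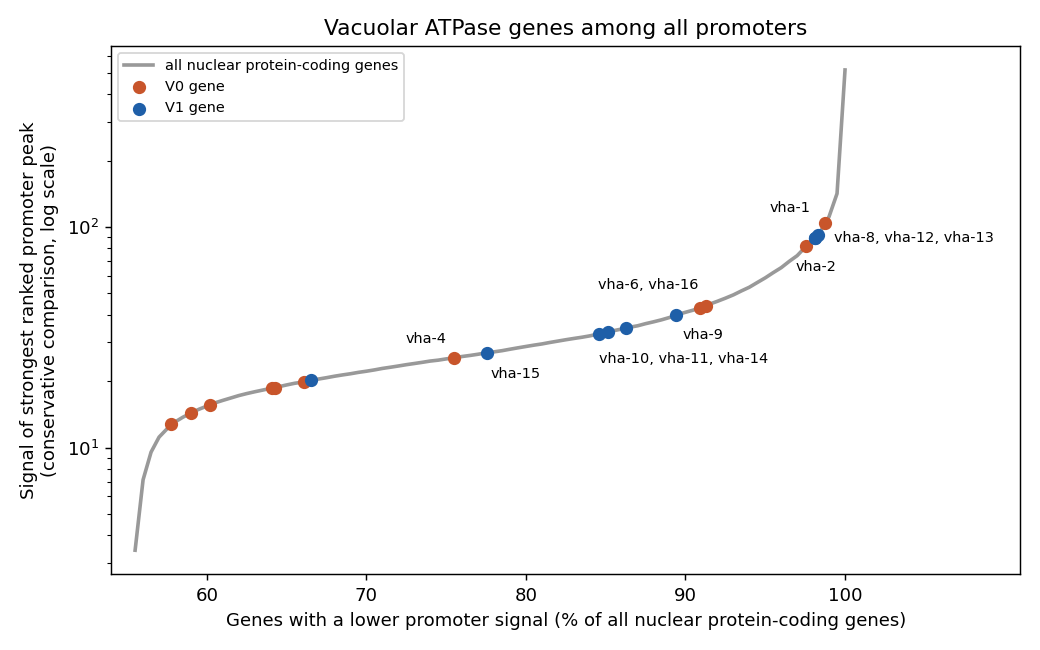
Signal of the strongest ranked promoter peak (vertical axis, log scale, replicate comparison) against the share of nuclear protein-coding genes with a lower one, in percent. The grey line is all genes with a ranked promoter summit, orange points are V0 genes and blue points V1 genes, and vha-7, with no ranked summit in its window, is not drawn. The 5 genes with a conservative summit sit at the right end, above 97.6% to 98.8% of genes, and vha-16 is next at 91.3%.

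None of the 11 other vacuolar ATPase genes had a conservative promoter summit. Among them the highest ranked signals were 44.0 at vha-16 (subunit d, which ties the c ring to the central stalk), 43.1 at vha-6 (a) and 39.8 at vha-9 (F of the central stalk). Their IDR was 0.348, 0.133 and 0.66. In replicate 1, vha-16 had 13.35 and vha-6 had 16.4, and vha-9 had no ranked promoter summit. In replicate 2, vha-16 had 28.1, vha-6 had 22.1 and vha-9 had 29.6. Gene vha-17 (e, a small membrane subunit) had a signal of 36.4 in replicate 1, 314 bp upstream of its start, with an own IDR of 0.0139 that just missed the threshold. In replicate 2 its strongest promoter signal was 17.7, at 50 bp downstream. Gene vha-14 (D of the central stalk) had 32.8, vha-18 (H) 20.2, and the accessory subunit genes vha-20 and vha-19 had 19.85 and 15.6. Genes unc-32 (a) and vha-3 (c) had 18.7 and 14.3, and vha-7 (a) had no ranked promoter summit in the comparison or in either replicate.

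Set side by side, V0 had 2 of 12 genes with a promoter summit and V1 had 3 of 9, beside 5.25% of all genes. Within the 10 listed genes these were 2 of 4 for V0 and 3 of 6 for V1, which is the same share. The strongest ranked promoter signal had a median of 19.3 over the V0 genes (0 to 104.5) and 34.9 over the V1 genes (20.2 to 92.3), and the ranges overlapped. Over the genes without a conservative summit these medians, also from the ranked comparison, were 18.65 for 10 V0 genes and 33.1 for 6 V1 genes. The replicates did not show such a gap. In replicate 1, vha-9, vha-15 and vha-18 of V1 and vha-3, vha-5 and vha-7 of V0 had no ranked promoter summit. The highest there were 36.4 at vha-17 of V0 and 22.0 at vha-10 of V1. In replicate 2 they were 28.1 at vha-16 of V0 and 29.6 at vha-9 of V1. A ranked promoter summit of any strength was present at 11 of 12 V0 genes and 9 of 9 V1 genes, beside 8916 of all 19973 genes (44.6%). The difference between the sectors was not tested. Replicate 1's own list gave the other order, with 2 of 12 V0 genes and 0 of 9 V1 genes, while that of replicate 2 gave 2 of 12 and 3 of 9.

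**Figure D3:**
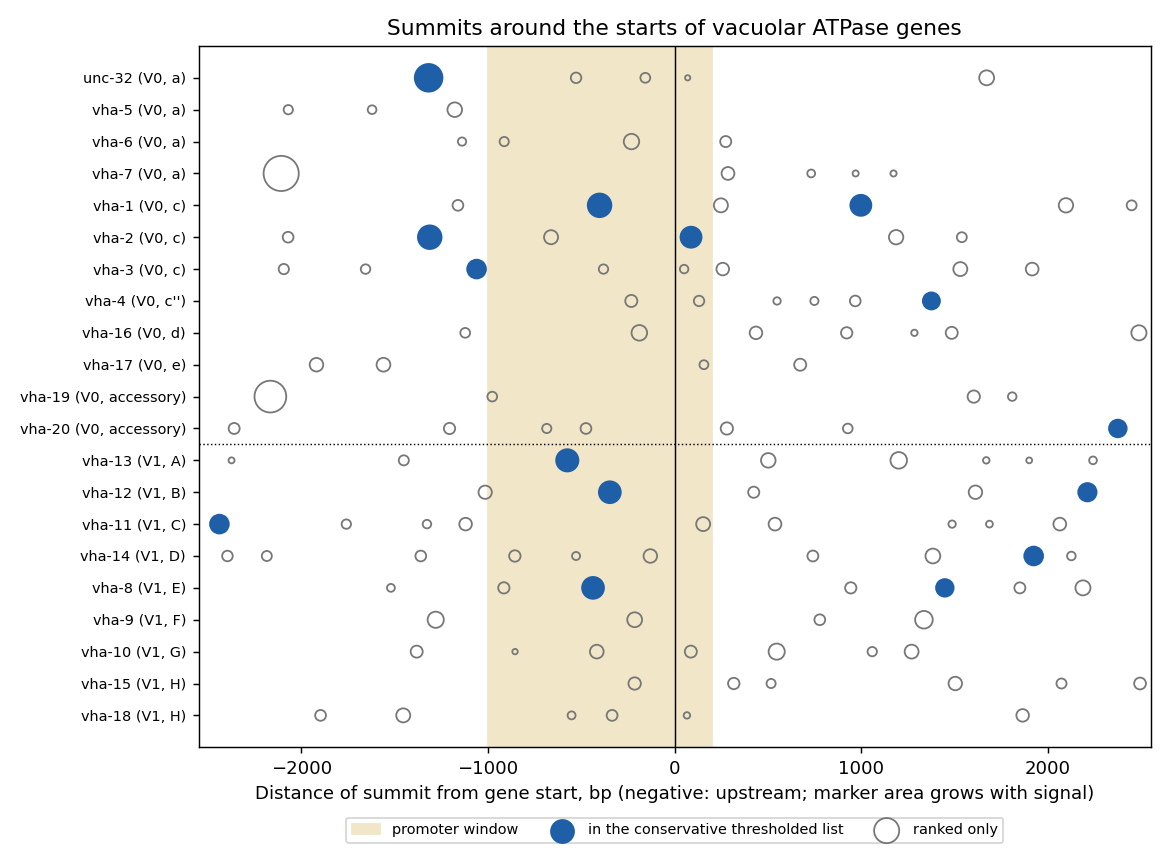
Distance of each ranked summit from the start of each vacuolar ATPase gene, in bp (negative is upstream), with V0 genes above the dotted line and V1 genes below it. Filled markers are in the conservative thresholded list, open markers are ranked only, marker area grows with signal, the shaded band is the promoter window, a summit near 2 genes is drawn in both rows, and peaks that repeat a stronger one are left out. Filled markers stand in the band at vha-1, vha-2, vha-13, vha-12 and vha-8, and upstream of it at unc-32 and vha-3. The vha-3 one is drawn again in the vha-11 row, and the vha-1 and vha-2 summits are each drawn again in the other's row. The remaining filled markers lie downstream of the band, in the vha-4, vha-20, vha-12, vha-14 and vha-8 rows.

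Among subunits with several genes, the c genes differed from each other. Of these, vha-1 and vha-2 had a promoter summit and vha-3 did not, although a summit lay 1061 bp upstream of vha-3, 61 bp past the edge of the window. That peak (chromosome IV, 2316858 to 2317153) had a signal of 65.1, with 36.13 and 32.66 in the 2 replicates, was in neither own list, and lay in the 5′ UTR of the divergent gene Y38F2AL.12, 433 bp inside it. The gene vha-11 follows vha-3 on the same strand with its start 1378 bp farther on. The same summit was thus the nearest conservative one to vha-11 too, at 2439 bp. Of the 4 a genes none had a conservative promoter summit. The nearest conservative summit to unc-32 was 1318 bp upstream (chromosome III, 8904255 to 8904343). It reached 144 in the conservative list, 46.3 in replicate 1 and 92.7 in replicate 2. It lay in the intergenic stretch that unc-32 shares with lin-9, which acts with the worm retinoblastoma protein, and only 166 bp upstream of lin-9. The nearest conservative summits to vha-6, vha-7 and vha-5 were 14.8, 39.3 and 50.9 kb away. Ranked summits outside that list lay nearer. They included 1 at 231 bp upstream of vha-6 (43.1) and a strong one 2108 bp upstream of vha-7 (234, IDR 1e-05). With a window of 2000 bp upstream to 500 bp downstream, vha-3 and unc-32 joined, which made 4 of 12 V0 genes, 3 of 9 V1 genes and still 5 of the 10 listed (7.72% of all genes).

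**Figure D4:**
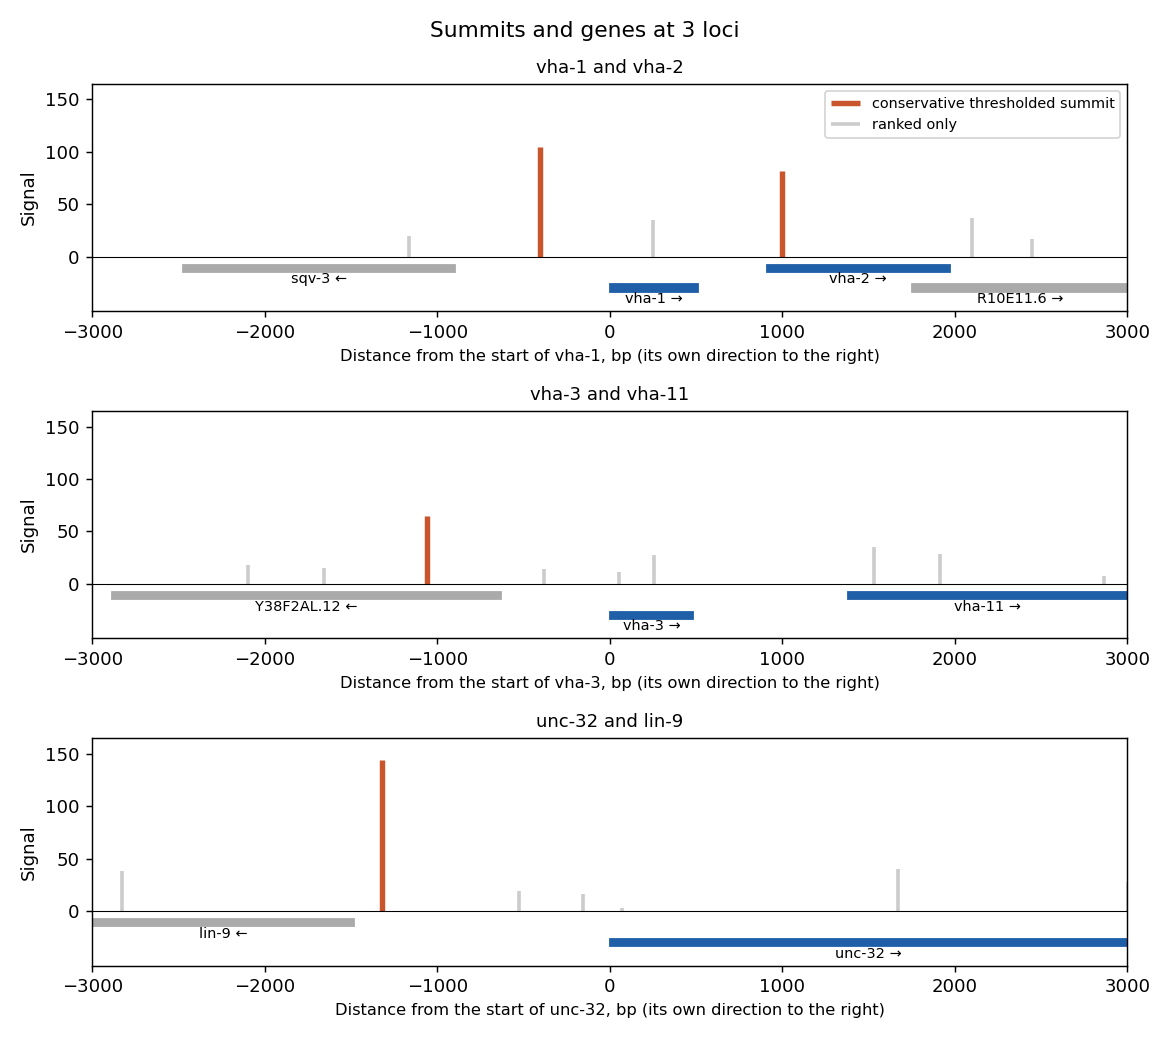
Summits (vertical lines, height is the authors' signal) and genes (bars, blue for vacuolar ATPase genes, arrows for direction) around the starts of vha-1, vha-3 and unc-32, by distance in bp. Orange lines are conservative thresholded summits and grey lines are ranked only. Separate summits mark vha-1 (104.5) and vha-2 (82.15), while those near vha-3 (65.1) and unc-32 (144) lie beside the divergent neighbours Y38F2AL.12 and lin-9.

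The promoter windows of 4 of the 10 genes (vha-1, vha-2, vha-4 and vha-8) overlapped that of a neighbour. Of the 5 promoter summits, 3 (60%) also lay in the promoter window of another protein-coding gene, beside 206 of 909 promoter summits in all (22.7%). The vha-1 summit lay 498 bp upstream of sqv-3, a galactosyltransferase gene of glycosaminoglycan synthesis needed for the vulva, which starts 900 bp away on the opposite strand. The vha-8 summit lay 437 bp upstream of vha-8 and only 149 bp upstream of C17H12.2, whose start is 586 bp away on the opposite strand. The vha-2 summit lay 754 bp upstream of R10E11.6, which starts 842 bp downstream of vha-2 on the same strand. The vha-12 and vha-13 summits counted for no other gene. When each summit counted for its nearest start alone, vha-8 was lost to C17H12.2 and 4 of 10 genes remained (4.21% of all genes). Among the genes without a summit, vha-4 had the divergent gene T01H3.5 300 bp away. The nearest conservative summit to vha-4 had a signal of 53.44 and an IDR of 0.00904. It lay 142 bp past the end of the gene in a coding exon of T01H3.2.

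GC content at the summit was above the median of the list at all 5 peaks. The longer ETS words were at none, but most summits of the list lacked them too, so nothing is read from that count. In windows reaching 50 bp to either side of the summit, GC content was 54.5% at vha-1 and vha-2, 51.5% at vha-13, 56.4% at vha-12 and 46.5% at vha-8. All 5 lay above the median of 45.5% over the 2243 nuclear summits (quartiles 39.6% and 51.5%) and above the median of 33.7% for windows 400 bp upstream of all gene starts. Motifs were searched on both strands as exact letters. GGAA was in 2 of the 5 windows (vha-2 and vha-13), beside 58.2% of nuclear summits and 62.6% of the windows 400 bp upstream of all genes. The longer ETS words GGAAG and CCGGAAG, which contain GGAA, were in 0 of 5, beside 18.6% and 0.981% of nuclear summits and 14.2% and 0.566% of the upstream windows. GGAAG was in none of the 5 whole peaks, and the vha-12 peak held no GGAA at all. The shares given above are for windows shorter than a whole peak, and a longer stretch holds a word more often. Shares over all whole peaks were not counted, so nothing is read from the whole-peak counts. The E-box CACGTG, read by HLH-30 and other bHLH factors of lysosomal genes, was in 0 of 5 (7.09% of nuclear summits and 1.71% of upstream windows). The GATA word TGATAA of intestinal factors was in 0 of 5 (23.1% and 10.2%). The POU octamer core TTTGCAT was in 1 of 5, at vha-8 (2.19% and 3.11%), centred 42 bp from the summit. A word that is not in these windows says nothing of whether a factor binds there.

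One 5-letter word out of 512, each counted with its reverse complement, was in all 5 windows. It was GCCGC, which was chosen after the windows were read. Its centre lay 42, 22 and 23 bp upstream of the summit at vha-1, vha-2 and vha-12, and 5 and 25 bp downstream of it at vha-13 and vha-8. It was in 16.1% of nuclear summit windows, in 18.04% of promoter summit windows and in 5.49% of the windows 400 bp upstream of all genes. Among the 1108 nuclear summits with at least the GC content of the vha-8 window, it was in 27.6%.

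Lists of genes that work beside the pump held 0 to 2 genes with a promoter summit each, small counts to be read beside the 5.25% of all genes. Of 20 lysosome genes, 2 had one. The cathepsin gene cpl-1 had 67.9 (replicate 1 at 37.4, replicate 2 at 32.1), and the lipid kinase gene ppk-3 had 54.1 (26.2 and 32.6). A second ppk-3 promoter summit, at 3.64, repeated those replicate signals and was shared with F11C1.4 and F11C1.10. Of 14 genes of TORC1 and lysosomal sensing, the kinase complex that reads nutrients at the lysosome, 2 had one. The GTPase gene rheb-1, an activator of TORC1, had 125 (63.7 and 67.4), and its summit was shared with spk-1. The folliculin gene flcn-1 had 65.1 (28.3 and 30.15), and its summit was shared with F22D3.4. Of 14 excretory canal genes none had a promoter summit. Of 13 genes of the F-type ATP synthase, the related mitochondrial enzyme, 1 had one: atp-1 with 125 (49.9 and 75.5), in a window shared with mcrs-1. Of these peaks, those of rheb-1 and atp-1 were in both own lists and that of cpl-1 in replicate 1's only. Gene starts are those of the annotation. Many worm transcripts are trimmed and joined to a spliced leader, so the true start of transcription can lie upstream.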

How the data were processed

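Peak lists on ce11, per the labels, were read: 4 ranked and 4 thresholded, 1 pair for each replicate, 1 for the conservative comparison of the replicates and 1 for the series. No source used here names the peak caller or aligner. Each peak carries a score and a signal given by the authors, and ranked peaks carry the deposited −log10 of the IDR. Every thresholded list was checked against its ranked list, and its peaks had a global IDR of at most 0.01. No peak ran past a chromosome end of WBcel235, the same assembly as ce11. Ensembl 115 gave gene starts. A summit was column 2 plus column 10, written 1-based. The signal quoted for a replicate at a peak of the comparison is that of the strongest overlapping peak in its own ranked list. For a gene without a conservative summit it is the strongest ranked promoter peak of that replicate. Counting was tested on simulated summits, with Python 3.11.15 and pandas 2.3.3. Members, lists and motifs were chosen with earlier results of these data known, so no test was run. All members and other vacuolar ATPase genes are named, related genes only where they had a promoter summit, and any gene sharing a member's summit. Read depth is unknown. The control experiment was not used here.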

Additional observations from a re-analysis of the deposited data

How the results depend on the processing

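No paired analysis was possible because there is 1 group and no test. Counts were recomputed under 11 other settings, signals under 3 and motifs under 3, and 84 of 110 values stayed within 1.5 times the reported count or within the SD of the replicates. That total includes settings that could not lose a listed gene, named next, and counts of 0 that stayed 0. It is therefore not a measure of stability. The 5 listed genes were the same with the series list, at an IDR of 0.001, without repeated peaks, with all transcript starts and with peak overlap. These settings could not lose them, so they are no check of the count. The series list held the same peaks, all had an IDR of 0.000343 or less, and none was a repeat. Transcript starts and peak overlap can only add genes. With 500 bp upstream vha-13 was lost, which left 4 of them and 2 V1 genes, and by nearest start vha-8 was lost, with the same counts. Leaving out a replicate gave 2 to 5 of the listed genes and 0 to 3 V1 genes, the low ends without replicate 2, and peaks in both own lists gave 2 and 0. The wider window gave 4 V0 genes. Lysosome genes numbered 0 to 1 when a replicate was left out, 0 with peaks in both lists and 0 at an IDR of 0.001. TORC1 genes numbered 1 without either replicate, 1 with peaks in both lists, 1 at that IDR, 1 with 500 bp upstream, 4 with the wider window and 0 by nearest start. With transcript starts 1 canal gene (nhr-31) was counted, and the series list and the wider window each gave 2 ATP synthase genes. By replicate, the share of ranked peaks with a lower signal ran from 97.4 to 99.1% at vha-1, 96.3 to 98.6% at vha-2, 96.8 to 98.3% at vha-13, 96.8 to 98.1% at vha-12 and 95.6 to 98.5% at vha-8, against 99.0, 98.1, 98.6, 98.5 and 98.5% in the comparison. In windows of 51 bp, GGAA was in 1 and TTTGCAT in 0. The causes were not tested. Read depth is unknown, so no limit of detection can be given.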

Other observations

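Strong ranked peaks lay 2108 bp upstream of vha-7 and 2166 bp upstream of vha-19, with signals of 234 and 191. Replicate 1 had 96.7 and 118 there, and replicate 2 had 142 and 78.2. Both had a global IDR of 1e-05, and neither is in the conservative thresholded list. Why they were left out is not stated. Both stand above the 5 promoter peaks of the vacuolar ATPase genes, of which the highest had 104.5.

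Second conservative summits lay past the ends of 2 V1 genes: 1448 bp downstream of the vha-8 start, with 56.6 overall (replicate 1 at 44.65, replicate 2 at 25.1), and 2212 bp downstream of the vha-12 start with 62.0 (40.4 and 23.9). At both, the value of replicate 1 was the higher one, while at the promoter peaks of the same genes that of replicate 2 was higher. The replicates' values are not on a known common scale. Gene vha-10 had a ranked peak 547 bp downstream of its start with a signal of 47.5 and an IDR of 0.0371, stronger than its promoter peak of 33.5.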
